A study of Mus musculus with 4 samples.

Results

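The Notch receptors, their ligands and the crypt genes they govern were followed as 10 of the 19308 genes listed in every library: the receptors Notch1, Notch2, Notch3 and Notch4, the ligands Dll1, Dll4, Jag1 and Jag2, the target Hes1, and Atoh1, which HES1 represses. They were looked up by gene symbol, because Notch is a protein substrate of ITCH. All 10 passed the filter on low counts. RNA sequencing was done on colonic mucosa of C57BL/6 wild-type (WT) mice and of Itch knockout (KO) mice, 2 libraries each. The labels give no age, treatment, background strain of the knockout or way in which Itch was disrupted. They put all 4 libraries in a state of inflammation, although the protocol text names inflammation for the knockout mucosa alone. Nothing says that the replicates are separate animals, so p-values measure the spread between these libraries.

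Notch receptors span the membrane and are switched on by Delta-like and Jagged ligands on a neighbouring cell. ADAM proteases and gamma-secretase then cut the receptor, and its intracellular part enters the nucleus, where it joins RBPJ and Mastermind coactivators to switch on genes such as Hes1. In intestinal crypts this signal keeps progenitors on the absorptive path: HES1 represses Atoh1, the factor that commits cells to goblet and enteroendocrine fates, and Atoh1-positive cells in turn display Delta-like ligands. ITCH, a HECT-type E3 ubiquitin ligase, marks Notch protein for endocytic sorting and degradation, a step that transcript counts do not measure. The question put to these data is whether receptor and target transcripts differ between Itch KO and WT mucosa.

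Total counts over the shared genes ran from 8181193 to 12199709 per library. Itch itself stood at 204 and 183 CPM (counts scaled to library size, with TMM factors) in WT, against 11.9 and 13.4 for KO, so the genotype labels matched the targeted gene. Across 16956 genes, edgeR's quasi-likelihood test called 0 at a Benjamini-Hochberg adjusted p below 0.05, a share of 0%, with 3343 at an unadjusted p below 0.05 (19.7%). Even Itch, with a log2 fold change of -3.93, had an edgeR adjusted p of 0.0922, so a missing call in that test says little. DESeq2 called 10.6% of the genes for which it gave an adjusted p, 5% lower and 5.59% higher, and limma voom called 0, with 3402 at an unadjusted p below 0.05. The libraries also differed within groups. Squamous epithelial markers summed to 1107 CPM in WT replicate 1, where all 14 had counts, against 17.3 in WT replicate 2, 34.4 and 42.1 in the KO libraries. Sprr3, a cornified envelope gene, was at 0 in those 3. Endothelial markers summed to 915 and 646 CPM in WT and 819 and 1528 in KO. The summed colon epithelial markers (Epcam, Cdh1, keratins, Cdx genes and transporters) were 2143 and 1811 against 2274 and 1759 CPM, with none of the 12 at 0, which fits the tissue label.

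In that background, 0 of the 10 Notch genes passed edgeR's test, and 1, Notch1, was called by DESeq2. Notch1, Dll1 and Hes1 were lower in both KO libraries than in both WT libraries, and Notch4 was higher in both. The other 6 overlapped. Groups that do not overlap were common: 56% of all tested genes were apart in either direction, 26% lower and 30% higher, so 4 of 10 is no more than the background share. The median log2 fold change of the 10 was -0.23, against 0.01 for all tested genes. Without WT replicate 1 it was -0.12, and without WT replicate 2 -0.39.

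**Figure D1:**
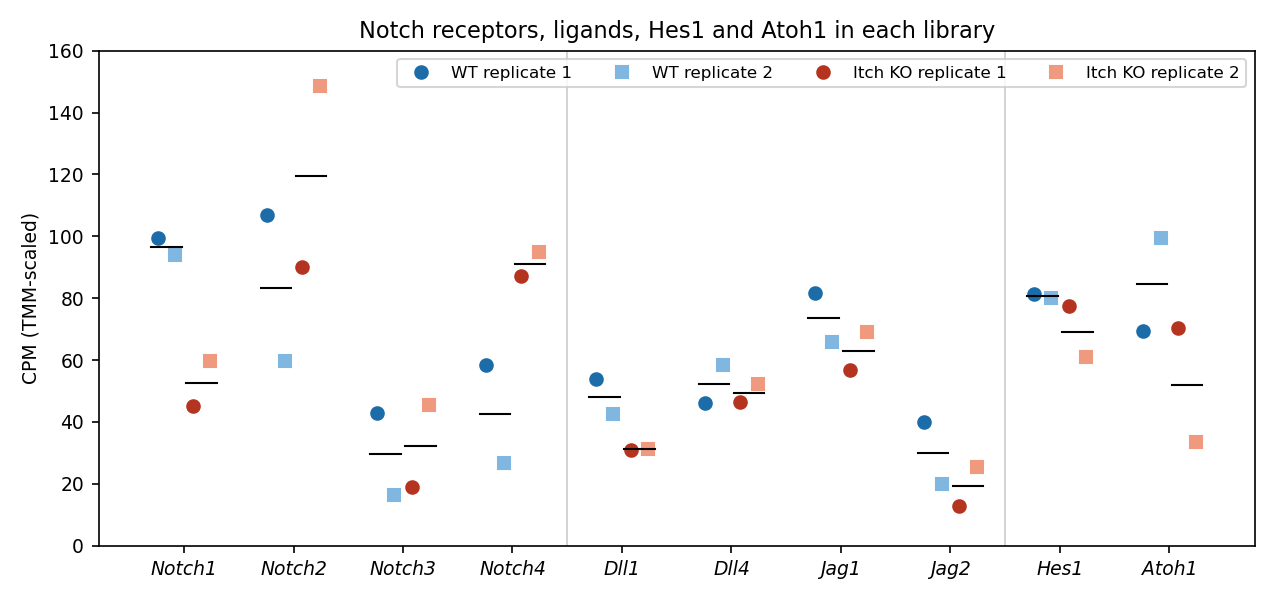
Level of each of the 10 genes in CPM (linear axis from 0) in the 4 libraries, with black bars at the group means of 2. Both KO points lie below both WT points for Notch1, Dll1 and Hes1 and above them for Notch4, and the remaining 6 genes overlap.

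Notch1, the receptor best known from crypt progenitors and T cell commitment, had the smallest p of the 10. The gene (ENSMUSG00000026923) lies on the minus strand of GRCm38 chromosome 2, 26457903 to 26516663, with 14232 exonic bases. WT libraries 1 and 2 held 99.3 and 93.9 CPM, KO libraries 1 and 2 held 45.1 and 59.8. Both KO values were well under both WT values, and the group means were 96.6 ± 3.85 and 52.4 ± 10.4 CPM (SD, n = 2 each). KO minus WT on the log2 scale came to -0.88 (SE 0.19), with a 95% interval of -1.38 to -0.38. Its p in edgeR was 0.00738, which became 0.138 after adjustment. The adjusted p by DESeq2 was 0.0148. The DESeq2 call ended whichever library was left out, with adjusted p-values of 0.358 and 0.32 without WT replicates 1 and 2, and 0.322 and 0.0813 without KO replicates 1 and 2.

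Gene length moved with the Notch1 difference. KO libraries had relatively fewer counts than WT libraries in long genes, and at the exonic length of Notch1, the 97.3rd percentile of tested genes, that trend amounted to -0.39 on the log2 scale. With each library's trend on length removed, the log2 fold change of Notch1 was -0.49 (edgeR adjusted p = 0.282). Notch1 also shares 1068 exonic bases with the antisense transcript 0610009E02Rik and 414 with Gm13568. No source used here names the strand setting of the counting, so reads in those bases cannot be told apart.

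Notch4, a receptor known chiefly from endothelium, went the other way. It lies on chromosome 17, plus strand, 34564268 to 34588503 (ENSMUSG00000015468). WT libraries held 58.5 and 26.6 CPM and KO libraries 87.1 and 94.8, means of 42.6 ± 22.5 and 91 ± 5.44 (SD, n = 2 each). The WT libraries were far apart from each other, the KO libraries close together and above both. The log2 fold change was 1.10 (SE 0.41, 95% interval 0.00 to 2.19), with an edgeR adjusted p of 0.253 and a DESeq2 adjusted p of 0.11. The size rested on the WT libraries: it was 1.79 without WT replicate 1 and 0.63 without WT replicate 2.

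Endothelial markers were read beside Notch4, and their part in its difference was not tested. As a percentage of the summed endothelial markers, Notch4 was 6.39 and 4.12 in WT and 10.6 and 6.21 in KO libraries, and these values overlap. Of the 14 markers, 4 were higher in both KO libraries, near the 30% of all tested genes, and 10 overlapped, with a median log2 fold change of 0.62. Neither edgeR nor DESeq2 called any of them, and their sum was lower in KO replicate 1 than in WT replicate 1. In bulk mucosa, fewer or more cells of a type and less or more RNA per cell cannot be told apart. Against the same markers Notch1 went from 10.9 and 14.5 to 5.51 and 3.91 percent, without overlap. Such percentages depend on the marker list, and no background was taken for them. Notch2 was lower in both KO libraries against summed macrophage markers (23.8 and 19.9 to 14.5 and 19.4 percent). Against summed fibroblast markers it was higher in both (6.22 and 5.66 to 6.81 and 7.59 percent).

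Stretches upstream of a start site of Notch1 and of Notch4 are shown because these 2 receptors mark the lower and upper ends of the fold changes among the 10. Sequences are from RefSeq's promoter table (GRCm38.p6), which matched 9 of the 10 genes, all but Hes1. They run 5′ to 3′ on the gene's strand. The Notch1 stretch ends at the base before RefSeq's start site and lies inside the gene's GENCODE span given above, whose upstream end at 26516663 belongs to a transcript that starts further upstream. That of Notch4 is shortened to end before the first GENCODE exon. Capitals mark any match to the N-box bound by HES repressors, searched as CACNAG and, for the other strand, as CTNGTG. Notch1 is chr2:26503823-26504072 on the minus strand and Notch4 is chr17:34564045-34564267 on the plus strand.
Notch1: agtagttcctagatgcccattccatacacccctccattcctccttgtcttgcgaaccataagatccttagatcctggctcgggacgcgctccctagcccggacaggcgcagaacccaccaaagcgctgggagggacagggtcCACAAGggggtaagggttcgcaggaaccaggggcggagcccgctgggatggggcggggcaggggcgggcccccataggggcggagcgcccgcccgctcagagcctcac
Notch4: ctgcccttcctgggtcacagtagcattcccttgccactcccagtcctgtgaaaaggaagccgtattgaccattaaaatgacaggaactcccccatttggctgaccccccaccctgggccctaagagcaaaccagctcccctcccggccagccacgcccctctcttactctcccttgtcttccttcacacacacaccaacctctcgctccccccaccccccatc
Notch1 held a single N-box and Notch4 none. Over the 250 bases before all 32851 listed starts, 36.7% held one. The core of the RBPJ site, searched as TGGGAA and for the other strand as TTCCCA, was in 21.6% of those windows and in none of the 9 matched genes' windows. These are matches of letters in a short window, not mapped binding sites.

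Notch2 and Notch3 did not separate the genotypes. Notch2, a receptor of many tissues including myeloid and B cells (ENSMUSG00000027878, chromosome 3, 98013527 to 98150361, plus strand), held 107 and 59.7 CPM in WT libraries against 90.2 and 149 in KO libraries. KO replicate 2 was the highest and WT replicate 2 the lowest, with KO replicate 1 between the WT values. The log2 fold change was 0.52 with an interval of -0.53 to 1.58 (edgeR adjusted p = 0.491), which holds changes of either sign. It was 1.02 without WT replicate 1, 0.16 without WT replicate 2, 0.84 without KO replicate 1, 0.13 without KO replicate 2, and 0.81 with the length trend removed. Notch3, the receptor of pericytes and vascular smooth muscle (ENSMUSG00000038146, chromosome 17, 32120820 to 32166852, minus strand), was at 43 and 16.4 against 19 and 45.5 CPM. WT replicate 1 and KO replicate 2 were high and the other 2 low, and the means were 29.7 ± 18.8 and 32.3 ± 18.7 (SD, n = 2 each). Its log2 fold change of 0.12 had an interval of -1.66 to 1.91, its sign turned when WT replicate 2 (-0.41) or KO replicate 2 (-0.63) was left out, and it was 0.30 with the length trend removed. Summed pericyte and smooth muscle markers had WT replicate 1 and KO replicate 2 high in the same way, with 1937 and 1436 CPM in WT libraries, 1272 and 1800 in KO libraries. Summed fibroblast markers, at 1717 and 1055 against 1324 and 1959 CPM, and the summed endothelial markers were also highest in these libraries. The colon epithelial and macrophage sums were not. The part of any of these markers in the Notch3 values was not tested.

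Among the ligands, Dll1 alone had groups that did not overlap. Dll1, a Delta-like ligand that secretory progenitors display (ENSMUSG00000014773, chromosome 17, 15367354 to 15376872, minus strand), held 53.8 and 42.5 CPM in WT libraries against 31.1 and 31.3 in KO libraries. The KO libraries were nearly equal and under both WT libraries. The log2 fold change was -0.62 (SE 0.21, interval -1.18 to -0.07), with an unadjusted edgeR p of 0.0349 and an adjusted p of 0.222. DESeq2 gave an adjusted p of 0.235. Removing the length trend left it at -0.65, and without WT replicate 1 it was -0.42. Dll1 shares 867 exonic bases with the opposite-strand transcript A930024N18Rik, and those reads cannot be told apart either.

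Dll4, the other Delta-like ligand of crypts and a ligand of sprouting endothelium (ENSMUSG00000027314, chromosome 2, 119325784 to 119335962, plus strand), held 46.2 and 58.3 CPM in WT libraries, 46.4 and 52.4 in KO libraries. The KO values lay between the WT values, and the interval of the log2 fold change ran from -0.60 to 0.44. Jag1, the broadly expressed Jagged ligand (ENSMUSG00000027276, chromosome 2, 137081456 to 137116644, minus strand), was at 81.7 and 65.7 against 56.9 and 69.1 CPM, with an interval of -0.74 to 0.28. Jag2 (ENSMUSG00000002799, chromosome 12, 112907819 to 112929776, minus strand) was at 40 and 20 against 12.8 and 25.5 CPM, and its interval of -2.10 to 0.80 was the widest of the ligands. Its highest value stood in WT replicate 1, the library rich in squamous markers, and without that library the log2 fold change of Jag2 was -0.04. It was -1.06 without WT replicate 2, -0.23 without KO replicate 1 and -1.22 without KO replicate 2. What the squamous markers contribute to Jag2 was not tested. Itch, Notch1, Dll4 and Jag1 all lie on chromosome 2.

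Hes1, the canonical target and a repressor of the secretory fate (ENSMUSG00000022528, chromosome 16, 30064384 to 30067796, plus strand), had groups that barely parted. WT libraries held 81.5 and 80.2 CPM and KO libraries 77.4 and 61, means of 80.9 ± 0.933 and 69.2 ± 11.6 (SD, n = 2 each). KO replicate 1 was close to the WT values and KO replicate 2 lower. The log2 fold change was -0.22 (SE 0.17, interval -0.67 to 0.22, edgeR adjusted p = 0.487). Without KO replicate 2 it was -0.05, and with the length trend removed -0.38.

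Atoh1, the secretory lineage factor opposed by HES1 (ENSMUSG00000073043, chromosome 6, 64729125 to 64731245, plus strand), held 69.5 and 99.5 CPM in WT libraries against 70.5 and 33.7 in KO libraries. KO replicate 1 was close to WT replicate 1, and KO replicate 2 alone was low. The log2 fold change was -0.70 (SE 0.42, interval -1.83 to 0.43, adjusted p = 0.409 in edgeR). It was -0.92 and -0.42 without WT replicates 1 and 2, and -1.33 and -0.25 without KO replicates 1 and 2. Its size rested on both WT replicate 2 and KO replicate 2. The means of Hes1 and of Atoh1 were thus both lower in KO, neither past the test.

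Read density bears on these 2 genes. Hes1 and Atoh1 averaged 364 and 327 reads per kb of exon, at the 93.2nd and 91.1st percentile of genes, whereas the receptors and ligands lay between 34.9 and 132 reads per kb. Fold changes were narrower in dense genes: the quartiles of the log2 fold changes ran from 0.01 to 0.31 in the densest decile of genes, which holds Hes1, and from -0.54 to 0.40 in the decile of Notch1. What this narrowing does to the values of Hes1 and Atoh1 was not tested.

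**Figure D2:**
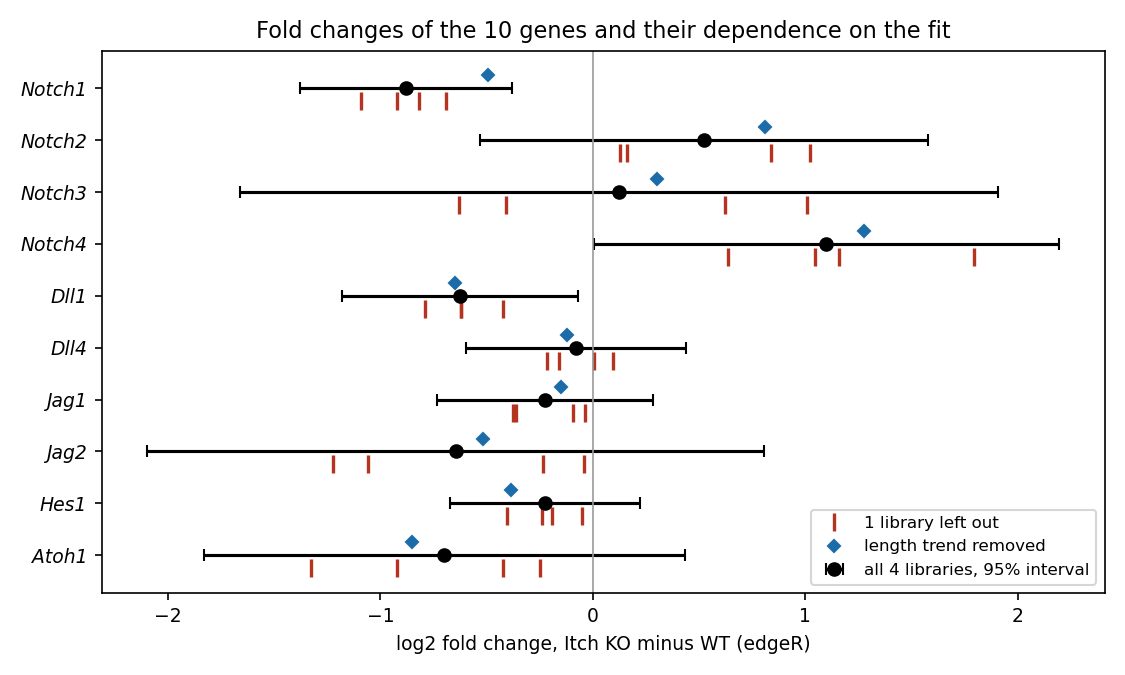
Log2 fold change of each gene (Itch KO minus WT) with its 95% interval from edgeR, the values with 1 library left out (red ticks) and with the length trend removed (blue diamonds). The intervals of Notch1 and Dll1 lie under 0 and that of Notch4 touches 0, Notch1 moves to -0.49 without the length trend, and Notch3 and Dll4 change sign when single libraries are left out.

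Compared per kb of exon, Atoh1 and Hes1 were the most abundant transcripts, at means of 39.8 and 39.7 CPM per kb in WT and 24.6 and 34 in KO. The highest count of any gene in a library was only 4567 to 9389, and counts look compressed in dense genes. What this does to the levels of the densest genes was not tested. The ligands Dll4, Jag1 and Dll1 followed in WT at 13.6, 12.6 and 11.4 CPM per kb. Notch2 at 7.72, Notch1 at 6.79, Notch4 at 5.28, Jag2 at 4.31 and Notch3 at 3.67 made up the lower end. Neighbours in this WT order overlapped between libraries, except at the steps from Hes1 down to Dll4 and from Dll1 down to Notch2. In KO mucosa Notch4 at 11.3 and Notch2 at 11.1 CPM per kb were the most abundant receptors and Notch1 at 3.69 the least on average, though its libraries overlapped those of Notch3. With the length of the longest coding transcript in place of all annotated exons, the Notch1 level in WT was 10.2 CPM per kb, above Notch2 at 7.93. In KO, Notch1 was then at 5.53 and Notch3, at 4.03, was the least abundant receptor.

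Shares within the receptors were read by library. They keep the length trend, which was -0.39 for Notch1 and -0.18 for Notch4 on the log2 scale. No background was taken for shares, and in CPM 56% of all tested genes had groups apart. Of the summed receptor level per kb, Notch1 made up 23.7% and 37.8% in the WT libraries and 12.8% and 11.9% in the KO libraries, without overlap. Notch4 went from 24.6% and 18.9% to 43.8% and 33.2%, also without overlap. The shares of Notch2 (33.6% and 31.7% against 33.9% and 39%) and Notch3 (18% and 11.6% against 9.53% and 15.9%) differed less. The receptor sum itself overlapped, at 29.5 and 17.5 CPM per kb in WT and 24.7 and 35.4 in KO. Among ligands, Dll1 held 28.6% and 25.6% in WT and 23.8% and 20.3% in KO, also without overlap. The ligand sum was 44.5 and 39.3 against 31 and 36.5 CPM per kb, lower in both KO libraries.

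**Figure D3:**
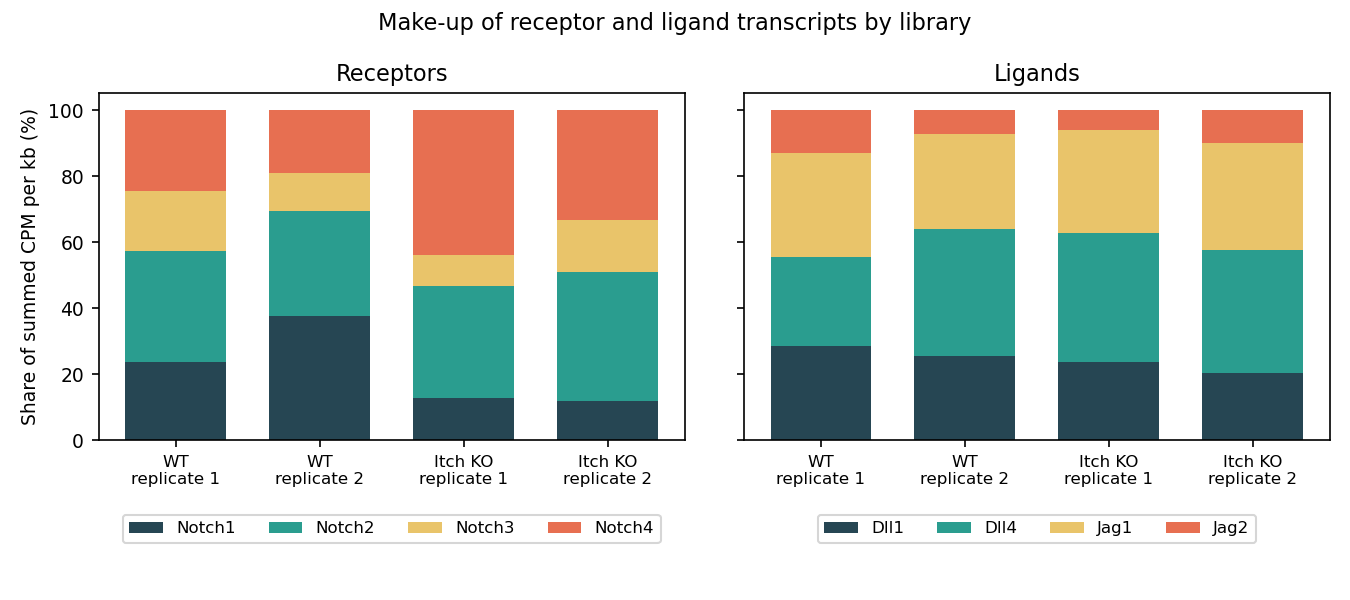
Share of each receptor (left) and each ligand (right) in the summed CPM per kb of its family, by library. Notch1 holds 23.7% and 37.8% of the receptor sum in WT and 12.8% and 11.9% in KO, where Notch4 holds 43.8% and 33.2%, and the ligand shares differ less.

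Set against the receptors, Hes1 kept no common direction. On the log2 CPM scale (prior count 2), Hes1 minus Notch1 was -0.29 and -0.23 in WT and 0.78 and 0.03 in KO libraries, higher in both KO libraries, with a mean difference of 0.66. Hes1 minus Notch4 was 0.48 and 1.58 against -0.17 and -0.63, lower in both KO libraries, with a mean difference of -1.43. Hes1 minus Notch2 and Hes1 minus Notch3 overlapped, with mean differences of -0.77 and -0.38. Leaving out single libraries moved these differences: Notch1 ran from 0.29 without KO replicate 1 to 1.03 without KO replicate 2. Notch2 ran from -1.30 without KO replicate 1 to -0.24 without KO replicate 2. Notch3 turned to 0.30 without WT replicate 2 and to 0.41 without KO replicate 2. Notch4 stayed below 0, from -1.98 without WT replicate 1 to -0.88 without WT replicate 2. Against the mean of the 4 receptors, Hes1 was at 0.18 and 1.01 in WT and 0.60 and -0.37 in KO, a difference of -0.48 that was smaller than the pooled SD of 0.64. It was -0.90 without WT replicate 1, -0.06 without WT replicate 2, -0.96 without KO replicate 1 and 0.0021 without KO replicate 2. An exact permutation test of 2 against 2 libraries cannot go below a two-sided p of 0.333, which Notch1 and Notch4 reached, while the mean of the 4 gave 0.667. With the length trend removed, the difference of Hes1 minus Notch1 was 0.11, while those for Notch2, Notch3, Notch4 and the mean of the 4 were -1.21, -0.72, -1.77 and -0.90.

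**Figure D4:**
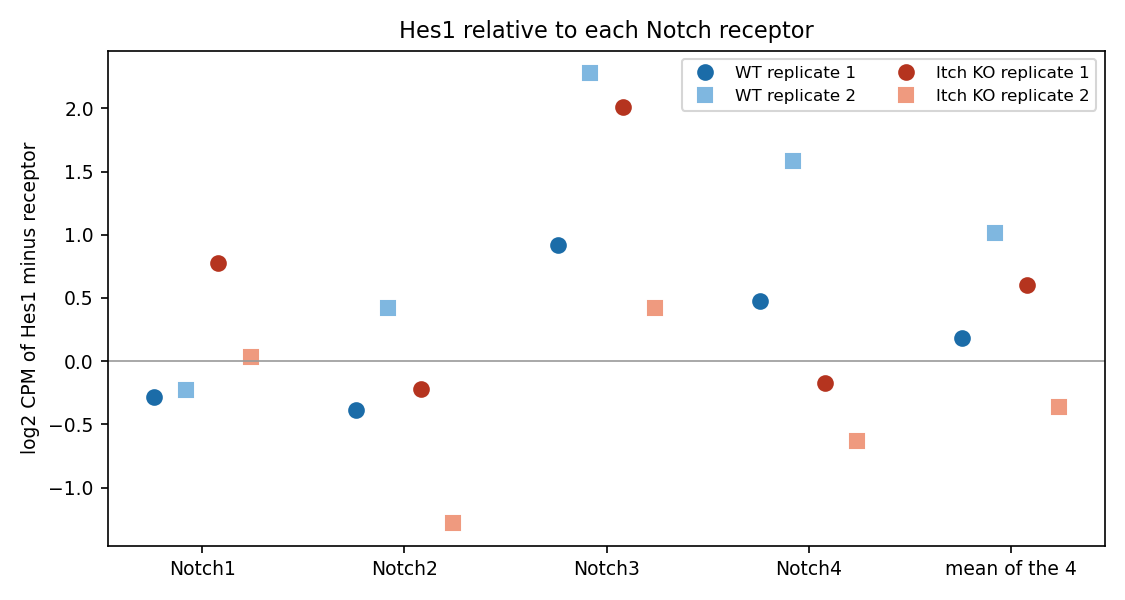
Log2 CPM of Hes1 minus that of each receptor, and of the mean of the 4, in each library. The KO points lie above the WT points for Notch1 and below them for Notch4, and overlap for Notch2, Notch3 and the mean.

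Other genes of the pathway were read as lists by role, of which edgeR called 0 members. The shares of all tested genes to set beside their counts are 30% higher and 26% lower in both KO libraries, and 5.59% and 5% called higher and lower by DESeq2. Targets of Notch other than Hes1 were measured for 11 of 13 genes. Of these 6 were higher in both KO libraries, 0 lower and 5 overlapped, beside 30% and 26% of all tested genes. The median log2 fold change was 0.22, and 0.17 without KO replicate 2. It was 0.41 and 0.84 without WT replicates 1 and 2 and 1.17 without KO replicate 1. In those last fits a further low-count gene of the list passed the filter, so their medians cover 12 genes and cannot be set directly beside 0.22. The well established target Nrarp, a feedback inhibitor of the receptor's nuclear complex, was at 63.1 and 60.7 against 66 and 52.2 CPM, and Cdkn1a, the cell cycle inhibitor with the highest level of the list, at 145 and 114 against 145 and 137. Both overlapped between the genotypes. Hey1, a HES-related repressor, was at 9.17 and 11.1 against 13.1 and 32.2 CPM. The members that DESeq2 called higher are ones that immune cells use: Il2ra, the interleukin-2 receptor alpha chain, at 3.63 and 4.07 against 18.6 and 52.2 CPM, and Gata3, a T cell and innate lymphoid factor, at 5.01 and 2.77 against 19.2 and 22.5. Olfm4, a crypt and neutrophil granule gene, was the remaining one, with 1 and 0 counts in WT and 14 and 69 in KO. Summed T cell markers went from 89.9 and 120 to 256 and 355 CPM beside them, with all 10 markers higher in both KO libraries, and their part was not tested. The DESeq2 calls of Il2ra, Gata3 and Olfm4 all ended without KO replicate 2. Those of Gata3 and Olfm4 also ended without WT replicate 2 and without KO replicate 1. Nrarp, Hey1, Gata3 and Olfm4 were chosen after their values were seen.

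Among 15 genes of receptor maturation and cleavage, 9 were higher in both KO libraries, 2 lower and 4 overlapped, beside 30% higher and 26% lower over all genes (median log2 fold change 0.23). DESeq2 called none. Mfng, a fringe glycosyltransferase that tunes which ligand a receptor answers to, had the largest difference, at 13.5 and 14.6 CPM against 25.6 and 39.2, a log2 fold change of 1.20 (SE 0.34) and an edgeR adjusted p of 0.187. Its relatives Lfng (44.7 and 55.7 against 59.3 and 87.3 CPM) and Rfng (70.9 and 67 against 99.8 and 81.5 CPM) were also higher in both KO libraries, and these 2 were picked after seeing their values. Adam10, the protease that makes the first cut, overlapped at 208 and 176 against 206 and 176 CPM.

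Of 18 genes of the nuclear complex and its corepressors, 10 were lower in both KO libraries, 3 higher and 5 overlapped, beside 26% lower and 30% higher over all genes. The median was -0.18, and -0.10 with the length trend removed. DESeq2 called 6 of them lower, beside 5% of all genes. Maml3, a Mastermind coactivator, held 74.4 and 69.1 CPM in WT against 31.5 and 27.5 in KO, a log2 fold change of -1.28 (SE 0.17) and an edgeR adjusted p of 0.123. Crebbp (89.7 and 97.3 against 46.3 and 40.6 CPM) and Ep300 (232 and 203 against 135 and 119 CPM) encode the acetyltransferases recruited by the complex. Spen (222 and 198 against 94.4 and 85.4 CPM) encodes a corepressor of RBPJ, and Ncor1 (336 and 355 against 240.0 and 213 CPM) encodes a further corepressor. Rbpj itself overlapped at 98.2 and 92.1 against 85.4 and 130 CPM. The 5 called genes given here have 10486 to 14273 exonic bases, above the 92nd percentile of tested genes, and with the length trend removed their log2 fold changes ranged from -1.01 for Maml3 to -0.26 for Ncor1. Of these 5, Spen alone kept its DESeq2 call whichever library was left out. The other calls ended without WT replicate 1, without WT replicate 2 and without KO replicate 2. All but Maml3 and Ncor1 were singled out after their values were seen.

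Among 20 genes of Notch trafficking and ubiquitylation, 10 were lower in both KO libraries, 3 higher and 7 overlapped, beside 26% lower and 30% higher over all genes. The 10 include the targeted gene Itch. Their median log2 fold change was -0.23, and 0.03 with the length trend removed. The related HECT ligase Nedd4 had the highest level and overlapped, at 373 and 293 against 293 and 285 CPM. DESeq2 called Itch, Wwp1 and Cbl lower and Dtx1 higher. Only the call of Itch held whichever library was left out. Those of Wwp1, Cbl and Dtx1 each ended without WT replicate 1 and without KO replicate 2. With the length trend removed, the edgeR log2 fold changes were -0.56 for Wwp1, -1.04 for Cbl and 1.52 for Dtx1. Wwp1, another HECT ligase of the ITCH family, was at 155 and 146 against 95.8 and 93 CPM, and Cbl, a RING ligase of receptor endocytosis, at 95.4 and 70.9 against 36.2 and 27.8. Dtx1, a Deltex ligase that is itself a Notch target in lymphocytes, was at 19.5 and 20.2 against 47.1 and 63.5 CPM, a log2 fold change of 1.48 (SE 0.24) and an edgeR adjusted p of 0.123. B cell markers, which include no Notch gene, summed to 49.2 and 29.3 CPM in WT and 768 and 785 in KO, with 9 of 9 measured markers higher, and their part in Dtx1 was not tested. Numb, the endocytic antagonist of Notch, was at 132 and 129 against 122 and 109.6 CPM. Wwp1, Cbl, Dtx1 and Numb were chosen after their values were seen. Of the remaining ligands of the pathway, Dlk1 was at 2.99 and 2.93 against 15.1 and 3.72 CPM, high in KO replicate 1 alone, and Dner at 16.5 and 16.6 against 4.79 and 16.

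Atoh1 acts through goblet and enteroendocrine genes. Of 17 secretory genes, 7 were lower in both KO libraries, 1 higher and 9 overlapped, beside 26% lower and 30% higher over all genes. The median log2 fold change was -0.15, and -0.25 with the length trend removed. It was -0.53 without WT replicate 1, -0.47 without KO replicate 1 and 0.11, of the other sign, without KO replicate 2. The 7 were the enteroendocrine genes Neurog3, Neurod1, Insm1, Pax4, Nkx2-2 and Chga, and the goblet mucin Muc2. Neurod1, an enteroendocrine transcription factor, had the largest difference of those above 5 CPM, at 10.9 and 19 against 2.46 and 1.55 CPM, a log2 fold change of -2.90 (SE 0.59). Its adjusted p was 0.136 by edgeR and 0.00164 by DESeq2. Insm1, which acts in the same lineage, was at 19.1 and 17 against 5.16 and 3 CPM. DESeq2 called these and the hormone granule gene Chga lower, but all of these calls ended without WT replicate 2 and without KO replicate 2. Muc2 was at 19.4 and 27.1 against 9.83 and 2.27 CPM, uncalled by both tests. The gene id counted as Muc2 has no entry in GENCODE M21, so whether these low counts cover the whole mucin gene is not known. Among other goblet genes Spdef, the goblet maturation factor, was at 66.8 and 117 against 116 and 84.4 CPM, and Fcgbp, a mucus protein and the list's most abundant gene, was highest in KO replicate 1 and lowest in KO replicate 2. Clca1, a secreted goblet protein, was the single gene higher in both KO libraries, at 35.2 and 29.7 against 53.6 and 44.7. As a percentage of summed colon epithelial markers, Atoh1 was 3.24 and 5.50 in WT and 3.10 and 1.91 in KO libraries, and Hes1 was 3.8 and 4.43 against 3.4 and 3.47, lower in both KO libraries for each gene. All but Neurod1, Fcgbp, Hes1 and Atoh1 were chosen after their values were seen.

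**Figure D5:**
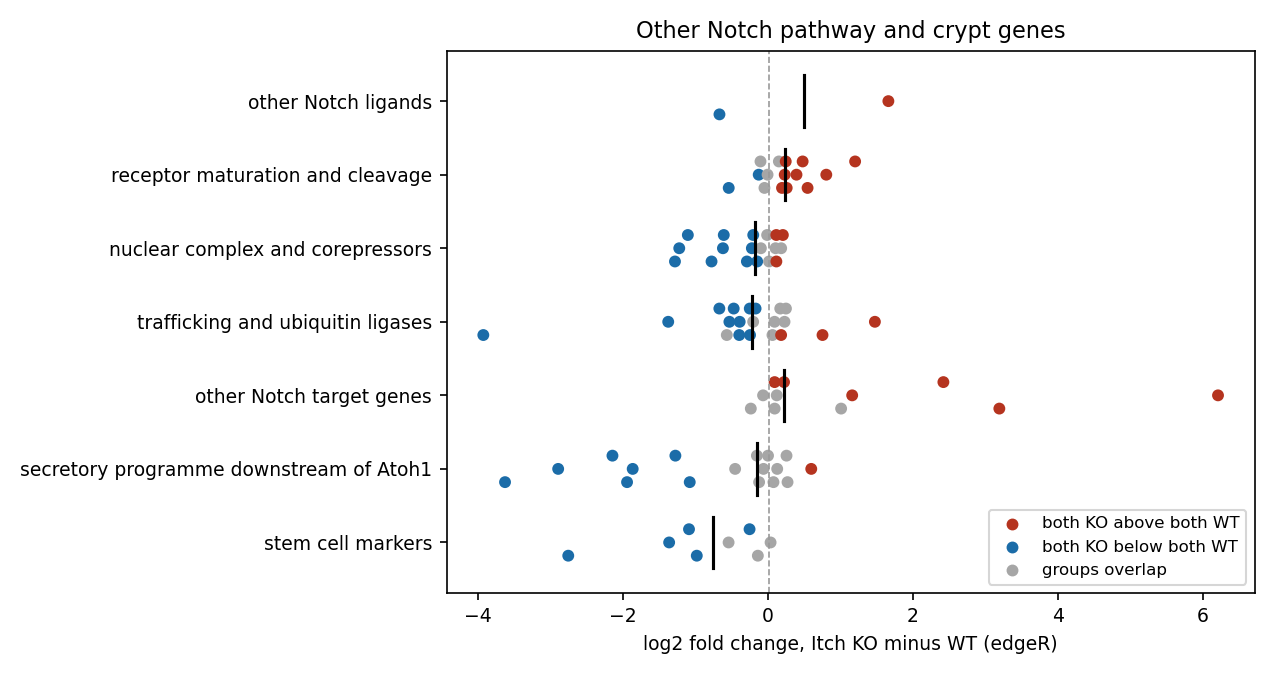
Log2 fold change (Itch KO minus WT) of each tested gene in the pathway and crypt lists, coloured by whether the groups overlap, with a black bar at the list's median and a dashed line at the median of all genes. On the lower side Itch reaches -3.93, secretory genes -3.63, stem cell markers -2.76 and nuclear cofactors -1.28. The targets Il2ra, Gata3 and Olfm4 extend to the upper side.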

How the data were processed

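Colonic mucosa RNA of 2 WT and 2 Itch KO libraries was sequenced, and libraries were grouped by title. The files deposited by the authors hold raw counts for each gene. HTSeq 0.6.1, SAMtools 0.1.19, TopHat2 and CASAVA 1.8.2 are the tools, and mm10 and GRCm38 the builds, per the submitters' processing notes. For annotation, strand setting and duplicate removal, the answer is not given in the sources used here. Summary lines (up to 23% of reads outside genes, up to 3.03% ambiguous) were left out. Positions and exonic lengths came from GENCODE M21.

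edgeR 4.0.16 (R 4.3.3) tested group with TMM factors, filterByExpr (minimum count 10), robust quasi-likelihood and two-sided Benjamini-Hochberg adjustment over all genes. Residual degrees of freedom were 2. DESeq2 1.42.0, limma 3.58.1 (voom), other normalizations and filters, a replicate block, removal of a per-library length trend and leaving out each library were alternatives. DESeq2 without each library and the transcript length were added after seeing the data. Scripts were tested on simulated data. Members and lists were chosen with earlier results of these data known. Named genes were the 10, Itch, and of each pathway list the gene with the largest change above a mean of 5 CPM and the one with the highest level. A member of the nuclear complex list is counted but not reported here by name.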

Additional observations from a re-analysis of the deposited data

How the results depend on the processing

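The 10 genes stayed without an edgeR or limma voom call under all 13 such alternatives run, and the count over all genes stayed at 0 in each. DESeq2 called 1752 genes and 1 of the 10 (Notch1). With single libraries left out, DESeq2 called 1190 and 902 genes without WT replicates 1 and 2, 1233 and 456 without KO replicates 1 and 2, and 0 or 1 of the 10, which was Notch4 without WT replicate 1 and Atoh1 without KO replicate 1. In the pathway lists DESeq2 called 13 of 66 tested genes, Itch itself among them, beside 10.6% of all genes. It called fewer of them with any 1 library left out. Notch3 and Dll4 changed sign. Leaving out single libraries gave -0.63 to 1.01 for Notch3 and -0.22 to 0.09 for Dll4 in edgeR. Values that turned were -0.41 without WT replicate 2 and -0.63 without KO replicate 2 for Notch3 (-0.44 and -0.64 in DESeq2), and for Dll4 0.094 without WT replicate 2 (0.067 in DESeq2) and 0.0038 without KO replicate 1. Hes1 minus the mean of the 4 receptors ranged from -0.96 to 0.0021, the latter without KO replicate 2. The causes were not tested. Same-numbered replicates share only a number: their deviations from the group means had a correlation of 0.048 over genes, and with the replicate block, which called 0 genes, Notch1 was at -0.89 (edgeR adjusted p = 0.269). With 2 libraries a group, edgeR called no difference of any size, not even that of Itch, and missing calls do not show equal levels.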

Other observations

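Crypt base stem cells depend on Notch signals from their neighbours, so 8 of their markers were read beside the Notch genes. Of these 5 were lower in both KO libraries, 0 higher and 3 overlapped, beside 26% lower over all tested genes, with a median log2 fold change of -0.76. The edgeR test called 0, and DESeq2 called 4 lower (Lgr5, Axin2, Rnf43 and Znrf3), beside 5% of all genes. Lgr5, the defining marker of these cells, had a log2 fold change of -2.76 in edgeR and a DESeq2 adjusted p of 2.02e-06. In edgeR it was -3.14 without WT replicate 1 and -2.21 without WT replicate 2. All 4 DESeq2 calls ended without WT replicate 2. Those of Axin2, Rnf43 and Znrf3 also ended without WT replicate 1 or without KO replicate 2. Rnf43, a ligase that removes Wnt receptors, held 119 and 132 CPM in WT libraries, 77.3 and 49.9 in KO libraries, with a DESeq2 adjusted p of 0.0147. Ascl2, a transcription factor of these cells, overlapped at 13.1 and 26.2 against 14.4 and 12.6 CPM, as did Smoc2 at 96.6 and 75.7 against 80.4 and 96.2. These genes were chosen after their values were seen.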
